A study of Rattus norvegicus with 35 samples.

Results

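Left ventricles of male Wistar rats were compared 42 days after ligation of the abdominal aorta with left ventricles taken 42 days after a sham operation. The ligated group held 6 animals and the sham group 6, each measured on 1 Illumina BeadChip array, so that 12 of the 35 arrays of the study were used. They were taken as all arrays of the last of 3 sampling days. The other days, 1 and 6 after the operation, hold 12 and 11 arrays and enter only where the size of the ligation effect is compared between days. All animals were of the same strain and sex per the labels, which name no genetic change and no drug, and the age of the rats and the degree of ligation were not given in the sources used here. The study's design text counts replicates as animals, and p-values measure the spread between them.

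Ligation of the abdominal aorta raises the pressure against which the left ventricle ejects, and the chamber answers with hypertrophy, the enlargement of its muscle cells. Hypertrophied ventricles are known to switch genes of the fetal heart back on, among them the natriuretic peptides and the skeletal form of actin, to lay down extracellular matrix between the muscle cells, and to turn from fatty acids toward glucose as fuel. By the last sampling day such a load is chronic, whereas day 1 also holds the acute response to surgery. The comparison therefore addressed which genes differ from sham at this late time, and hypertrophy itself was not measured by the arrays.

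Each array carried 22523 probes, with a median of 41 or 42 beads behind a probe, and detected 32.8% to 39.7% of them. Heart muscle was borne out by its markers, as all 16 cardiomyocyte markers were measured. Their mean log2 level lay between 14.1 and 14.3 in the ligated and between 14.1 and 14.2 in the sham arrays. This list does not tell ventricle from atrium. Levels are log2 intensities after normalisation, in arbitrary units that cannot be compared between probes, and differences between ligated and sham ventricles are log2 fold changes with their standard error (±, SE) unless a linear fold is named.

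The ligated arrays were dimmer before scaling. The 75th percentile of the scanner intensity had a lowest, median and highest value of 161, 199 and 273 in the ligated arrays, against 259, 289 and 348 in the sham arrays (exact permutation test, two-sided, p = 0.00433, n = 6 per group). Ligated replicate 1 was the only ligated array inside the sham range. The BeadChip held the ligated animals at A to F and the sham animals at G to L, and operation, chip position and brightness cannot be told apart. On the main axis of variation, which held 35.7% of the variance, the ligated arrays lay between -1.67 and 28.4 and the sham arrays between -30.6 and -1.04. Ligated replicate 1, at -1.67, lay on the sham side of sham replicate 6, and its median correlation was 0.975 with the other ligated arrays and 0.974 with the sham arrays.

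Of 6229 genes tested, 425 were higher and 487 lower in the ligated ventricles at an adjusted p under 0.05 (limma, n = 6 per group), which is 14.6% of the genes in either direction, 6.82% higher and 7.82% lower. A change of 2-fold or more was seen in 41 of the higher and 40 of the lower genes. In 348 of the 912 called genes the groups did not overlap, and over all genes tested the ligated arrays lay wholly above the sham arrays in 3.23% and wholly below in 2.86%. By probe, 1252 of 8351 passed (15%), 610 higher (7.3%) and 642 lower (7.69%).

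These counts rest on quantile normalisation, which gives all arrays the same distribution of intensities. When arrays were instead scaled to the median of all their probes, 81 probes were higher and 4629 lower, and the median over the probes tested was -0.47, so changes here are relative to the bulk of the probes. When they were scaled to the median of the probes tested, 854 were higher and 502 lower. With array brightness as a term of the fit, 3 probes passed, although 1218 of the 1252 calls kept their direction. These 3 were Map1b, a microtubule-associated protein, Dusp3, a protein phosphatase chosen for mention after its values were seen, and 1 probe with no gene symbol. The count of probes was 810 without ligated replicate 3, 834 without ligated replicate 5, and 736, 753, 676 and 788 without sham replicates 1, 2, 3 and 4. Without ligated replicate 1 it was 1772. In that array, 79.5% of those 1772 probes lay on the called side of the sham mean, with a median size 0.40 times that of the other ligated arrays. In the other 5 arrays, set against the calls made without each, the share was 91.4% to 97.97% and the size 0.78 to 1.16 times, a description without a test since the sham arrays are shared.

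Across 35 lists of genes sorted by function, those of the stressed and fetal heart and of TGF-beta signalling had the highest median fold changes, and those of fatty acids, of ketone and amino acid breakdown and of the TCA cycle the lowest. The counts of each list below stand beside 6.82% higher and 7.82% lower over all genes tested. The lists with no call in either direction were complement (12 genes measured), antigen presentation and the interferon response (35) and the circadian clock (12), although under median scaling 3, 25 and 5 of their members were lower.

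**Figure D1:**
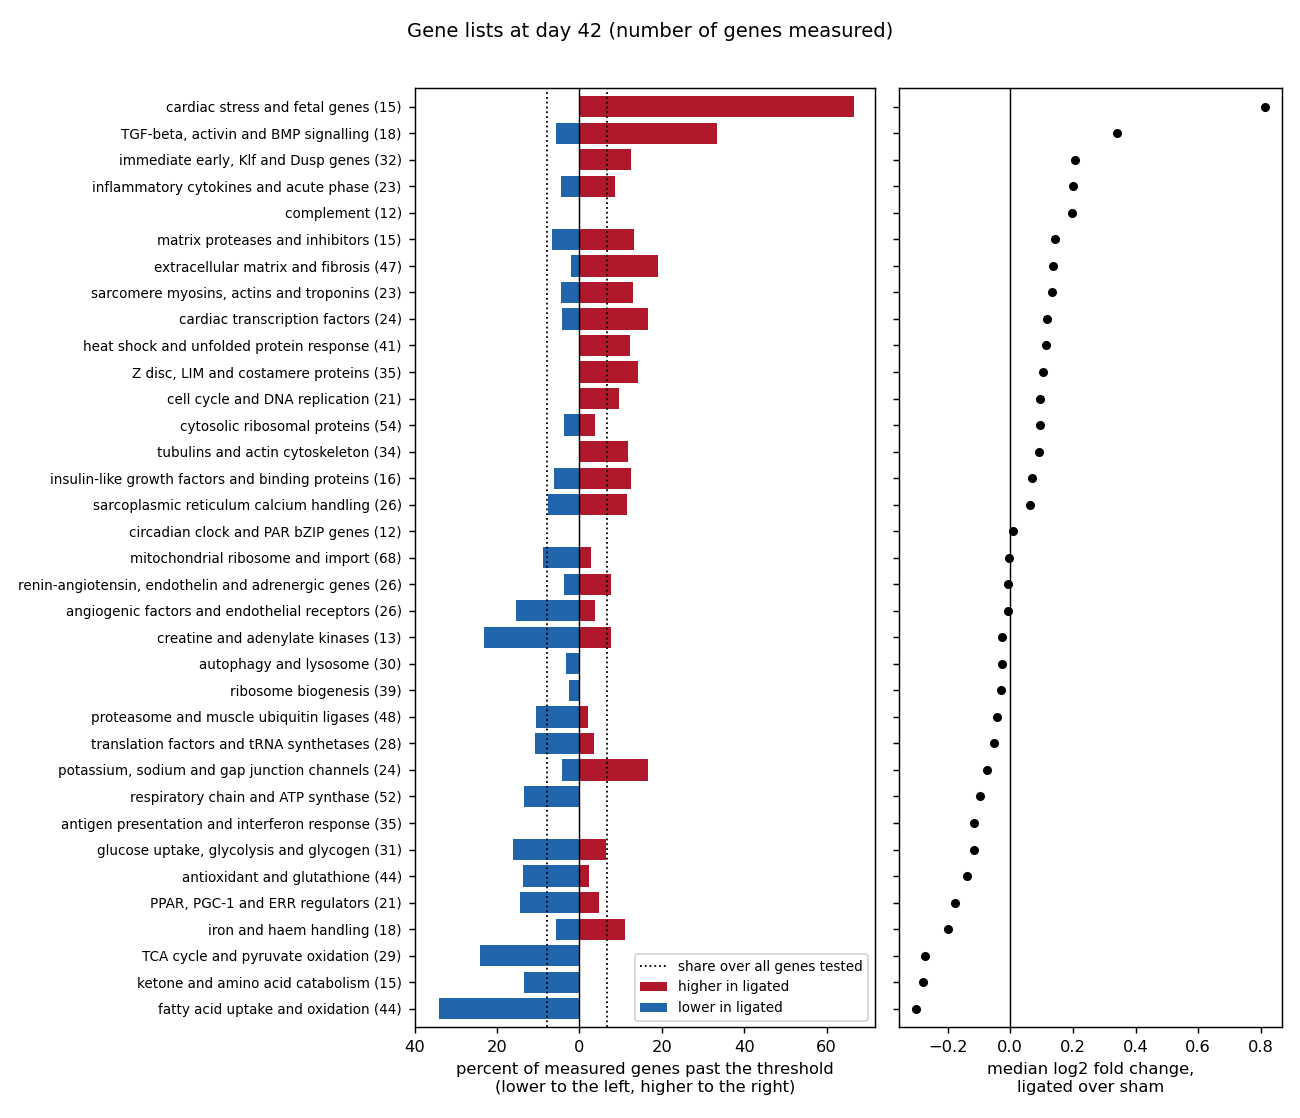
Percent of the measured genes of each list that passed the threshold (left panel, higher in ligated to the right and lower to the left, dotted lines at the 6.82% higher and 7.82% lower over all genes tested) and median log2 fold change of ligated over sham (right panel). Stress and fetal genes stand at the top with a median of 0.81 and fatty acid genes at the bottom with -0.30.

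Most genes of the stressed and fetal heart were higher. Of 15 measured genes, 10 rose and 0 fell (8 and 0 under median scaling), and the median was 0.81, against -0.0088 over all genes tested. Nppa, the atrial natriuretic peptide that the healthy adult ventricle makes little of, had the largest rise of any gene tested. Its lowest, median and highest levels were 12.30, 14.96 and 15.56 in ligated ventricles, against 10.14, 10.66 and 13.79 in sham ventricles, a rise of 8.56-fold (3.10 ± 0.66, adjusted p = 0.00945). The groups overlapped through sham replicate 4 at 13.79 on one side and ligated replicates 5 and 2, at 12.30 and 13.44, on the other. Nppb, the B-type natriuretic peptide, showed the same array highest among the shams, with 13.74, 14.62 and 15.29 in ligated against 12.45, 13.11 and 14.11 in sham ventricles (1.31 ± 0.30, adjusted p = 0.0140).

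Nppa is also an atrial gene, and of 6 atrial markers on the array 4 were detected on too few arrays to be tested. Myl7, the atrial myosin light chain and the other marker measured, lay between 7.01 and 11.88 in ligated and between 6.93 and 11.98 in sham ventricles (0.75 ± 0.90, adjusted p = 0.589). In ligated replicates 1 to 6 Myl7 was at 10.59, 9.35, 11.35, 7.01, 11.88 and 10.08, beside Nppa at 15.56, 13.44, 15.05, 14.87, 12.30 and 15.37. In sham replicates 1 to 6 Myl7 was at 7.79, 6.93, 9.57, 11.16, 11.98 and 8.30, beside Nppa at 10.14, 10.75, 10.57, 13.79, 10.52 and 12.23. The part of atrial tissue in the Nppa result was not tested.

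Acta1, the skeletal muscle actin of the fetal heart, had 14.95, 15.51 and 15.71 in ligated against 12.95, 14.14 and 14.66 in sham ventricles, without overlap (2.57-fold, 1.36 ± 0.25, adjusted p = 0.00469). Ankrd23, a muscle ankyrin repeat protein of the sarcomere's elastic part, was detected by 6 ligated and 3 sham arrays, with a fitted rise of 4.82-fold (2.27 ± 0.40). Ankrd23 entered the test through the ligated arrays, where it is high, so these values are a description. The size of its rise is not fixed, since not all sham levels are above background. Enah, an actin regulator, rose by 1.25 ± 0.21 and Rcan1, a feedback inhibitor and transcriptional target of calcineurin, by 0.86 ± 0.17. Smaller rises were those of the muscle LIM protein Csrp3 (0.52 ± 0.10) and of Mybpc2, a myosin-binding protein of fast skeletal fibres (0.81 ± 0.21). Under median scaling Rcan1, Csrp3 and Mybpc2 did not pass.

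The classic myosin switch could not be read from these probes. Myh7, the slow myosin of the fetal rat ventricle, had 15.69, 15.97 and 16.08 in ligated against 14.09, 15.40 and 16.08 in sham ventricles (0.61 ± 0.29, adjusted p = 0.152), and Myh6, the adult myosin, 15.98, 16.08 and 16.12 against 15.74, 15.91 and 16.12 (0.14 ± 0.09, adjusted p = 0.290). The ligated arrays of Ankrd1, a stress-induced ankyrin repeat protein, all lay between 16.02 and 16.08, above the sham arrays at 15.31 to 15.98 (0.32 ± 0.11, adjusted p = 0.0651). All of these probes are close to saturation, where differences can be compressed, with a mean log2 scanner intensity of 15.66 to 16.02.

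The 250 bases before the start of 3 stress genes are shown because they hold the M-CAT element, to which TEAD transcription factors bind and which is long known from muscle gene promoters, and those of Nppa because they do not. The letters searched were CATTCC on either strand, so the reverse reads GGAATG, and matches are in capitals. Sequences are RefSeq's for build GRCr8, read in the direction of the gene, with Acta1 at chr19:68784195-68784444 (minus strand), Nppb at chr5:163699758-163700007 (plus strand), Ccn2 at chr1:22624615-22624864 (minus strand) and Nppa at chr5:163711934-163712183 (plus strand).
Acta1: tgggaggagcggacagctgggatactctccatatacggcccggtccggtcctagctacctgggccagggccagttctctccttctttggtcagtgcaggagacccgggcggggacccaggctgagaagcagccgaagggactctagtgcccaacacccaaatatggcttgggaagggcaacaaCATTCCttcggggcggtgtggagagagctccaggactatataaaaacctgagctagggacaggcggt
Nppb: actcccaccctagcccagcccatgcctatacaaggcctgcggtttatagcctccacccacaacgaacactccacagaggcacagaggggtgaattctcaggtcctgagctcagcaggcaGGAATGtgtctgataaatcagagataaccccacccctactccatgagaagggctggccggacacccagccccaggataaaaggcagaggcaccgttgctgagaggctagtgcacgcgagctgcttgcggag
Ccn2: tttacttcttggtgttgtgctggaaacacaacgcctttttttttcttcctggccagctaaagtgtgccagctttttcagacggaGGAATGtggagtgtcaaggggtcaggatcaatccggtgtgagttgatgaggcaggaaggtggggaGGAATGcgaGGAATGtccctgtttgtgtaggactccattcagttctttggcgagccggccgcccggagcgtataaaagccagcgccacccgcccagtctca
Nppa: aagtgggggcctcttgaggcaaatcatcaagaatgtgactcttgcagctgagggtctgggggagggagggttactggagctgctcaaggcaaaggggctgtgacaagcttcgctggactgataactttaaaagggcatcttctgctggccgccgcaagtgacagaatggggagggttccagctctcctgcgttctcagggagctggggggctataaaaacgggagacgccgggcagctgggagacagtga

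Ccn2 held 3 matches, beginning 166, 101 and 92 bases before the start, Nppb held 1 at 131 bases and Acta1 1 at 67 bases. Of the 10 stress genes that rose, 9 had a promoter in the table and 6 of them a match in this window. All 3 stress genes with a promoter that did not pass the threshold had none. Over the 5226 tested genes with a promoter the share was 10.4%. The letters were chosen with the fold changes known, so these counts describe the windows and test nothing.

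Genes of the extracellular matrix and of TGF-beta signalling rose in part. Of 47 measured matrix genes, 9 rose and 1 fell (4 and 18 under median scaling), with a median of 0.14. Col8a1, a network-forming collagen, had 10.34, 10.64 and 11.13 in ligated against 8.93, 9.28 and 9.53 in sham ventricles, well apart (2.66-fold, 1.41 ± 0.16, adjusted p = 0.000299). Ltbp2, a protein of elastic microfibrils, had 6.18, 7.44 and 8.03 in ligated against 5.30, 5.67 and 6.33 in sham ventricles. It was detected on 6 of 6 and 2 of 6 arrays, with a fitted rise of 3.04-fold (1.61 ± 0.27). Ltbp2 entered the test through the ligated arrays, where it is high, so its values and its place among the 9 rises are a description. The size of its rise is not fixed. Only its lowest ligated array fell within the sham range. Thbs4, a thrombospondin of load-bearing tissue, rose 2.98-fold (1.58 ± 0.36), Cilp, a matrix protein of cartilage and injured heart, 2.66-fold (1.41 ± 0.25), and the small proteoglycan Bgn 1.80-fold (0.85 ± 0.13, not past the threshold under median scaling).

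The fibrillar collagens Col1a1 and Col3a1 were not among the genes that rose. Col1a1 had 8.86, 9.66 and 10.35 in ligated against 8.93, 9.76 and 9.89 in sham ventricles (0.06 ± 0.22, adjusted p = 0.886, with the sign turning under several settings). Col3a1 had 10.27, 10.70 and 11.40 in ligated against 10.82, 11.41 and 11.67 in sham ventricles and was the 1 member of the list that fell (-0.57 ± 0.18, adjusted p = 0.0485), a call kept in 2 of the 12 fits that left out 1 array. Postn, the matricellular protein periostin, was at 0.70 ± 0.23 (adjusted p = 0.0547). Spp1, the matrix-associated cytokine osteopontin, was detected by 3 ligated and 4 sham arrays and stood at -0.10 ± 0.46 (adjusted p = 0.896, above 0 under several settings).

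Among 15 proteases and inhibitors of the matrix 2 rose and 1 fell (0 and 5 under median scaling), where 6.82% rose and 7.82% fell over all genes tested. The 2 that rose were Timp1, which blocks matrix metalloproteinases, by 0.75 ± 0.20 and Serpine2, which blocks serine proteases, by 0.91 ± 0.21. Timp1 did not pass without sham replicate 1 or sham replicate 3, and neither passed under median scaling.

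Of 18 genes of TGF-beta, activin and BMP signalling, 6 rose and 1 fell (1 and 6 under median scaling), with a median of 0.34. Over all genes tested 6.82% rose and 7.82% fell. The ligand Tgfb2 had 8.83, 9.71 and 10.33 in ligated against 7.37, 8.10 and 8.49 in sham ventricles, without overlap (3.14-fold, 1.65 ± 0.27, adjusted p = 0.00273). Ccn2, the connective tissue growth factor whose promoter is shown above and a target of this pathway, had 13.50, 14.09 and 15.64 in ligated against 11.94, 12.83 and 13.46 in sham ventricles (2.86-fold, 1.52 ± 0.33, adjusted p = 0.0111). Here too the lowest ligated array lay above the highest sham array. Pmepa1, an induced brake on the pathway, rose by 0.69 ± 0.09, Fstl3, a secreted trap for activin, by 0.84 ± 0.18, and the BMP receptor Bmpr2 by 0.51 ± 0.12, all 3 without passing under median scaling. Smad2, a transducer of TGF-beta signals, was the member that fell (-0.67 ± 0.14, adjusted p = 0.00954).

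**Figure D2:**
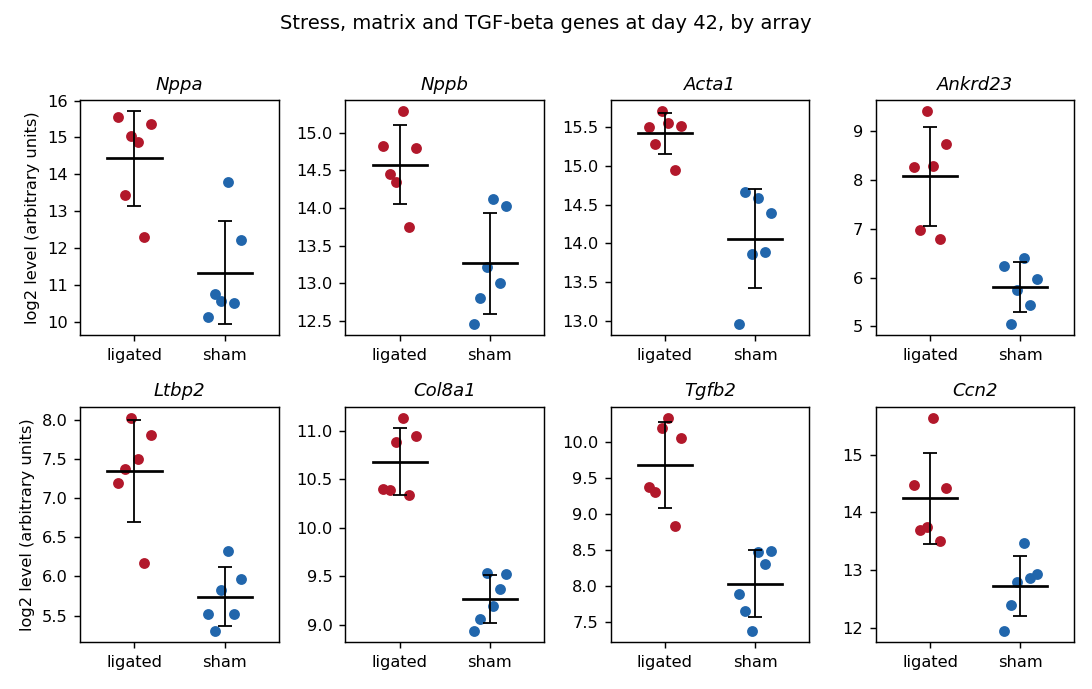
Log2 level in each ligated (left, red) and sham (right, blue) array of day 42, with the group mean and SD as bars, for 8 genes. The groups do not overlap for Acta1, Ankrd23, Col8a1, Tgfb2 and Ccn2, and overlap for Nppa, Nppb and Ltbp2. Ankrd23 and Ltbp2 entered the test through the ligated arrays.

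The 9 measured markers of activated fibroblasts, 4 of which are the matrix genes Col8a1, Ltbp2, Cilp and Thbs4, had 4 rises and 0 falls (4 and 0 under median scaling). Their mean level was 8.54 to 9.34 in ligated against 7.89 to 8.26 in sham arrays. Since Ltbp2 entered the test through the ligated arrays, its part in these values is a description. Of 16 markers of fibroblasts in general, 1 rose and 1 fell (1 and 10 under median scaling). The riser was Pi16, a secreted protein of resting fibroblasts (2.82-fold, 1.49 ± 0.21, adjusted p = 0.00125), while its other probe was at 0.68 (adjusted p = 0.0670). In whole tissue a change in the number of cells of a type and a change in RNA per cell cannot be told apart.

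Energy metabolism moved the other way. None of the 44 measured genes of fatty acid uptake and oxidation rose and 15 fell (0 and 38 under median scaling), 40 of the 44 had a fold change below 0, and the median was -0.30. Decr1, an enzyme for unsaturated fatty acids, had 11.83, 12.12 and 12.32 in ligated against 12.55, 12.83 and 13.09 in sham ventricles, with no overlap (1.65-fold lower, -0.72 ± 0.13, adjusted p = 0.00426). The falls covered successive steps of the route. Cd36, which carries fatty acids into the cell, fell by 0.65 on the log2 scale (SE 0.14), Slc22a5, the carnitine transporter, by 0.49 (SE 0.11), Acsl1, which links fatty acids to coenzyme A, by 0.53 (SE 0.10), and Ech1, an isomerase of beta-oxidation, by 0.60 (SE 0.13), each without overlap between the groups. Acot2, a mitochondrial thioesterase, had the largest fall of the list (2.39-fold lower, -1.26 ± 0.32) and was detected by 4 ligated and 6 sham arrays.

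**Figure D3:**
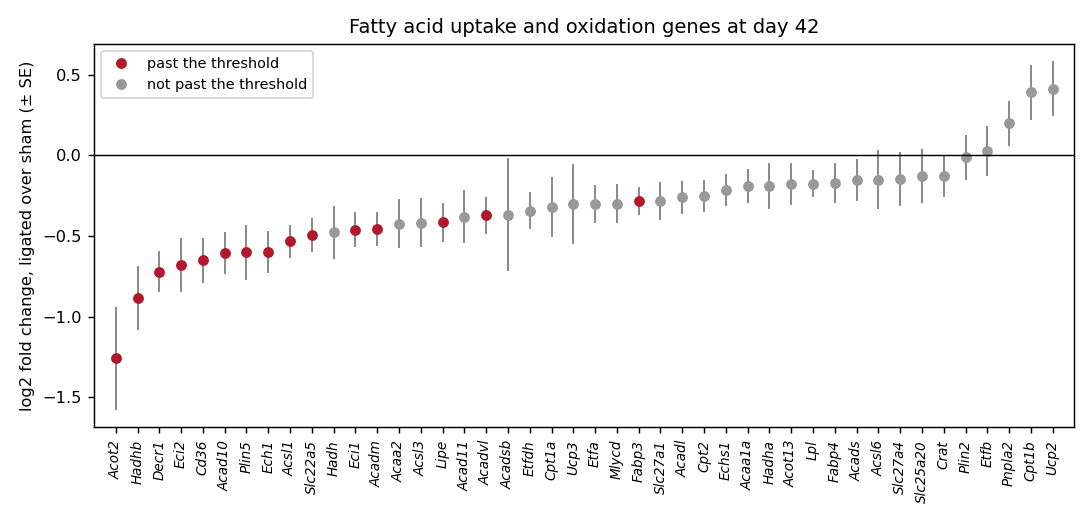
Log2 fold change of ligated over sham ± SE for each of the 44 measured genes of fatty acid uptake and oxidation, in rising order. The 15 genes past the threshold (red) all lie below 0, and 4 of the others (grey) lie above it.

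Of 29 genes of the TCA cycle and pyruvate oxidation, 0 rose and 7 fell (0 and 24 under median scaling), with a median of -0.27. Idh2, the mitochondrial NADP-dependent isocitrate dehydrogenase, had 11.87, 12.53 and 12.99 in ligated against 13.33, 13.43 and 13.75 in sham ventricles, a gap with no array between (1.97-fold lower, -0.98 ± 0.17, adjusted p = 0.00356). The pyruvate dehydrogenase complex fell in 2 of its subunits, Pdhb (-0.49 ± 0.13) and Dld (-0.85 ± 0.25), and in Pdp1, the phosphatase that activates it (-0.67 ± 0.18), calls that were each lost without sham replicate 2 and without sham replicate 3, and for Dld and Pdp1 without other arrays too (kept in 5 and 6 of 12). Among 52 genes of the respiratory chain and ATP synthase 0 rose and 7 fell (0 and 31 under median scaling, 6 and 2 when scaled to the median of the probes tested), with a median of -0.10. The complex I subunits Ndufv1 (-0.56 ± 0.12) and Ndufb11 (-0.43 ± 0.09) and the cytochrome oxidase subunit Cox6c (-0.60 ± 0.15) were among them, Ndufb11 without a call when scaled to the median of the probes tested.

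Glucose genes held rises in a share near the 6.82% over all genes tested and falls in a larger share than the 7.82%. Of 31 measured, 2 rose and 5 fell (0 and 17 under median scaling). Another 8 members, among them the glucose transporters Slc2a1 and Slc2a3, were not tested. Both that rose carry lactate and pyruvate across the cell membrane, Slc16a1 by 0.63 ± 0.14 and Slc16a3 by 0.77 ± 0.18, and neither passed under median scaling. Pygb, a glycogen phosphorylase, fell by 0.57 on the log2 scale (SE 0.16, kept in 7 of 12 fits with an array left out). In the breakdown of ketones and amino acids 0 of 15 genes rose and 2 fell (0 and 14 under median scaling), both from the branched-chain amino acid pathway: Bckdhb, a subunit of its dehydrogenase (-0.57 ± 0.15, lost without sham replicate 3), and Ppm1k, the phosphatase that activates that enzyme (-1.03 ± 0.29, detected by 3 ligated and 6 sham arrays, kept in 6 of 12 fits).

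Among 21 PPAR, PGC-1 and ERR regulators of these genes 1 rose and 3 fell (0 and 14 under median scaling), beside 6.82% higher and 7.82% lower over all genes tested. Ppara, the nuclear receptor of fatty acid genes, was at 0.44 ± 0.25 (adjusted p = 0.234), and its coactivator Ppargc1a at -0.19 ± 0.19 (adjusted p = 0.506). Rxrg, a retinoid X receptor and partner of Ppara, fell by 0.46 on the log2 scale (SE 0.14), a call kept in 4 of 12 fits with an array left out. Nrip1, a corepressor of oxidative genes, fell by 0.81 (SE 0.21, lost without sham replicate 1 or sham replicate 2), and Ppargc1b, a relative of Ppargc1a, rose by 0.60 ± 0.17 (kept in 5 of 12, lost under median scaling). In the creatine system the brain-type kinase Ckb, another gene of the fetal heart, had 11.88, 12.19 and 12.37 in ligated against 10.86, 11.27 and 11.78 in sham ventricles (1.82-fold, 0.87 ± 0.16, adjusted p = 0.00566). The muscle-type Ckm, near the upper end of the range, had 14.87, 15.31 and 15.40 in ligated against 15.44, 15.72 and 15.78 in sham ventricles (-0.46 ± 0.12, adjusted p = 0.0226). The groups were apart for both kinases, in opposite directions, while under median scaling Ckb did not pass and when scaled to the median of the probes tested Ckm did not.

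Genes of excitation and calcium handling had calls in both directions, with falls in no larger a share than the 7.82% over all genes tested, where 6.82% rose. Of 24 potassium, sodium and gap junction channel genes, 4 rose and 1 fell (1 and 12 under median scaling). Scn3b, an accessory subunit of sodium channels, had 6.45, 8.30 and 8.90 in ligated against 5.73, 6.35 and 6.77 in sham ventricles, with only the lowest ligated array inside the sham range (3.28-fold, 1.71 ± 0.33, adjusted p = 0.00648). Kcnip2, which sets the transient outward potassium current together with Kcnd2, had 12.74, 12.93 and 13.51 in ligated against 11.80, 12.30 and 12.70 in sham ventricles, just apart (1.69-fold, 0.75 ± 0.16, adjusted p = 0.0105). Kcnd2 itself was at -0.13 ± 0.31 (adjusted p = 0.803, above 0 without ligated replicate 4 or sham replicate 3). The channel that fell was Kcnk2, a stretch-gated potassium channel, with 8.30, 8.53 and 9.15 in ligated against 8.95, 9.93 and 10.19 in sham ventricles (2.24-fold lower, -1.16 ± 0.22, adjusted p = 0.00509). Abcc8, the sulfonylurea receptor, rose by 0.41 ± 0.11 and was below 0 under median scaling (call kept in 7 of 12 fits with an array left out).

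In calcium handling 3 of 26 genes rose and 2 fell (0 and 12 under median scaling). The calmodulin gene Calm3 rose by 0.66 ± 0.13 and Cacna1g, a T-type calcium channel of the fetal ventricle, by 0.85 ± 0.22 (lost without sham replicate 2). Trdn, which anchors calsequestrin at the release channel, fell by 0.69 on the log2 scale (SE 0.22), and Cacnb2, a subunit of the L-type channel, by 0.59 (SE 0.17), calls kept in 3 and 4 of the 12 fits with an array left out. Atp2a2, the calcium pump of the sarcoplasmic reticulum, had 15.90, 16.04 and 16.08 in ligated against 16.04, 16.10 and 16.12 in sham ventricles, near the upper end of the range (-0.07 ± 0.08, adjusted p = 0.548). It was above 0 under both median scalings and past the threshold when scaled to the median of the probes tested (0.59, adjusted p = 0.00847). Calm3 and Cacna1g did not pass when arrays were scaled to the median of all probes.

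Structural genes of the muscle cell held more rises than falls under quantile normalisation and more falls than rises under median scaling, set against 6.82% higher and 7.82% lower over all genes tested. Of 35 Z disc, LIM and costamere genes, 5 rose and 0 fell (2 and 12 under median scaling), of 34 tubulins and actin regulators 4 and 0 (1 and 14), and of 23 sarcomere genes 3 and 1 (2 and 4). Nexn, an actin-binding Z disc protein, had 11.88, 12.08 and 12.66 in ligated against 10.78, 11.11 and 11.21 in sham ventricles (1.14 ± 0.14, adjusted p = 0.000624), although its other probe was at -0.16 (adjusted p = 0.367). Map1b had 7.68, 7.94 and 8.22 in ligated against 6.06, 6.31 and 6.52 in sham ventricles and the smallest adjusted p of the genes named (1.66 ± 0.13, adjusted p = 1.22e-05), while its other probe was at 0.11 (adjusted p = 0.855). Both genes therefore changed by 1 of their 2 probes. Csrp2, a LIM protein of smooth muscle, rose 2.39-fold (1.26 ± 0.26). From outside the lists, Dpysl3, a cytoskeletal protein of growing nerve cells, rose 3.02-fold (1.59 ± 0.17). The cardiac troponin Tnnc1 fell by 0.84 on the log2 scale (SE 0.24), a call kept in 5 of 12 fits with an array left out.

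Some genes of cytotoxic lymphocytes were lower. Of 17 markers of T and NK cells, 12 were detected on too few arrays to be tested, among them Cd3d, Cd3e, Gzma and Gzmb. Of the 5 measured 0 rose and 3 fell (0 and 5 under median scaling), with a median of -0.66. Klrd1, Cd3g and Cd8a entered the test through the sham arrays, since at most 2 ligated arrays detected them, so these counts are a description. Nkg7, a granule protein of NK and cytotoxic T cells, had 6.23, 6.85 and 7.38 in ligated against 7.76, 8.15 and 8.71 in sham ventricles (2.51-fold lower, -1.33 ± 0.20, adjusted p = 0.00206). Klrd1, an NK receptor, had a fitted fall of 2.29-fold (-1.20 ± 0.23). With 2 ligated and 6 sham arrays detecting Klrd1, the size of its fall is not fixed. Prf1, the pore-forming protein perforin, fell 1.46-fold (-0.55 ± 0.12). Ccl5, a chemokine made by these cells among others, had 8.34, 8.98 and 9.43 in ligated against 9.75, 10.11 and 10.53 in sham ventricles (2.39-fold lower, -1.26 ± 0.19, adjusted p = 0.00198).

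Klre1, another NK receptor, and Xcl1, a chemokine of NK and CD8 T cells, were detected by 0 ligated arrays but all 6 sham arrays, and so were at least 1.54-fold and at least 1.62-fold lower. They too entered the test only through the sham arrays, where they are high, and are given as values with no test. Nkg7, Prf1 and Ccl5 were detected by all 12 arrays. For these 3 every ligated array lay below every sham array, as in 2.86% of all genes tested. Each call held with any 1 array left out, while Prf1 did not pass with the spread shared by all 6 groups. Klre1, Xcl1 and Ccl5 came from the ranking of falls and the inflammatory list and were set beside the lymphocyte markers after their values were seen. Neither the 12 macrophage markers measured nor the 35 genes of antigen presentation held a call. Of 13 neutrophil markers, 12 were detected on too few arrays to be tested. The ligated arrays are the dimmer ones and the mean log2 scanner intensity of these probes is 7.34 to 9.62. With brightness in the fit none of the 6 passed, with adjusted p between 0.0883 (Klre1) and 0.507 (Prf1), and its part in the result was not tested further.

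**Figure D4:**
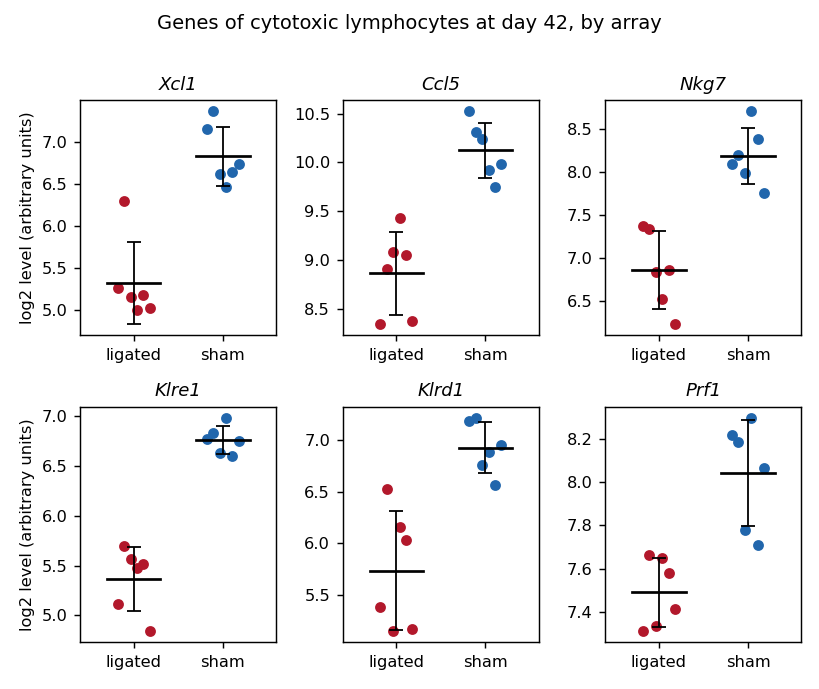
Log2 level in each ligated (left, red) and sham (right, blue) array of day 42, with the group mean and SD as bars, for 6 genes of cytotoxic lymphocytes. All ligated arrays lie below all sham arrays for each gene, and Klre1 and Xcl1 were not detected on any ligated array.

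Cytokines and other inflammatory genes numbered 23, of which 2 rose and 1 fell (1 and 6 under median scaling). Beside 6.82% higher and 7.82% lower over all genes tested, these counts do not set the list apart. Tnfrsf12a, the receptor of the cytokine TWEAK, had 9.57, 10.42 and 11.49 in ligated against 8.48, 8.88 and 9.52 in sham ventricles (2.86-fold, 1.52 ± 0.27, adjusted p = 0.00425), with the groups narrowly apart. The member that fell was Ccl5. Reg3b, a lectin secreted after injury, had 7.73, 9.93 and 11.04 in ligated against 7.41, 8.17 and 8.97 in sham ventricles (1.40 ± 0.48, adjusted p = 0.0636).

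Vessel and hormone genes had calls in both directions, set against 6.82% higher and 7.82% lower over all genes tested. The vessel list held a larger share of falls than that. Of 26 angiogenic factors and endothelial receptors, 1 rose and 4 fell (1 and 12 under median scaling). Vegfa, the endothelial growth factor, had 9.76, 9.86 and 10.60 in ligated against 8.66, 9.08 and 9.31 in sham ventricles, apart (1.00 ± 0.16, adjusted p = 0.00257). Its transcriptional activator Hif1a fell by 0.75 on the log2 scale (SE 0.19) and Tek, the angiopoietin receptor of endothelial cells, by 0.78 (SE 0.21, kept in 9 of 12 fits with an array left out). Vash2, a secreted relative of the angiogenesis inhibitor vasohibin, had 8.04, 8.63 and 8.87 in ligated against 5.66, 6.61 and 7.56 in sham ventricles (3.73-fold, 1.90 ± 0.29, adjusted p = 0.00196).

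Of 26 genes of renin, angiotensin, endothelin and adrenergic signalling, 2 rose and 1 fell (0 and 11 under median scaling). Apln, the peptide apelin that dilates vessels and strengthens contraction, fell 1.70-fold without overlap (-0.77 ± 0.15, adjusted p = 0.00692), and Adcy5, an adenylyl cyclase of the adrenergic pathway, rose by 0.78 ± 0.21 (kept in 9 of 12 fits with an array left out, lost under median scaling). Corin, the protease that activates the natriuretic peptides, was at -0.90 ± 0.32 (adjusted p = 0.0727).

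Regulators of transcription and genes of protein folding are given next, set against 6.82% higher and 7.82% lower over all genes tested. Of 24 cardiac transcription factors and cofactors, 4 rose and 1 fell (1 and 9 under median scaling). They included Sox4 (2.64-fold, 1.40 ± 0.30) and Myocd, the coactivator myocardin that drives smooth and cardiac muscle genes (0.62 ± 0.12, lost under median scaling). Of 32 immediate early, Klf and Dusp genes, 4 rose and 0 fell (1 and 11 under median scaling), with Egr1, a growth-responsive zinc finger factor, up 1.99-fold (0.99 ± 0.20) and Klf13 up 1.53-fold (0.61 ± 0.12). Of 41 heat shock and unfolded protein response genes, 5 rose and 0 fell (0 and 17 under median scaling). Ddit3, the stress transcription factor CHOP, had 11.16, 11.29 and 11.72 in ligated against 10.44, 10.67 and 10.78 in sham ventricles (0.71 ± 0.11, adjusted p = 0.00230) and Canx, a chaperone of the endoplasmic reticulum, rose by 0.90 ± 0.22. Sec61g, a subunit of the channel through which proteins enter that compartment, was detected by 6 ligated and 3 sham arrays, with a fitted rise of 4.16-fold (2.06 ± 0.34). Sec61g too entered the test through the ligated arrays, so this is a description and the size is not fixed. Klf13, Ddit3 and Canx did not pass under median scaling.

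Other genes with large changes fell outside the lists. Cyp2e1, a cytochrome P450 that oxidises small molecules and fatty acids, had the lowest fitted value, with 4.99, 5.54 and 6.53 in ligated against 7.10, 8.28 and 8.85 in sham ventricles (-2.51 ± 0.32). It was detected by 1 ligated array and all 6 sham arrays, so 5 of the ligated levels are not above background and the size of the fall is not fixed by these arrays. Akip1, a binding partner of protein kinase A, rose 3.61-fold (1.85 ± 0.30), Usp36, a nucleolar deubiquitinase, 2.95-fold (1.56 ± 0.16), Samd12 3.34-fold (1.74 ± 0.18) and Sbsn, suprabasin, 3.81-fold (1.93 ± 0.54, kept in 7 of 12 fits with an array left out). Other fitted falls were those of Fam81a (-1.60 ± 0.30), the lysosomal transporter Slc46a3 (-1.35 ± 0.24), the purinergic receptor P2ry1 (-1.32 ± 0.25) and Efemp1, a fibulin of the matrix (-1.27 ± 0.22). Of the 6 ligated arrays, 2 detected Fam81a, 3 Slc46a3, 4 P2ry1 and 3 Efemp1, and the same limit holds for them. Marchf7, a ubiquitin ligase, was detected on 0 of 6 ligated arrays and was at least 1.38-fold lower. The fitted falls of Abhd18, Akt1s1 and Ranbp6 were 2.32-fold, 2.30-fold and 2.29-fold. Akt1s1 and Ranbp6 were detected on 2 and 1 of 6 ligated arrays, so the size of their falls is not fixed either.

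The last comparison was of the ligation effect on day 42 with that on the earlier days, each measured against the shams of its own day. Each day has a BeadChip of its own, and the part of the chip cannot be told apart from that of the day. Among 6028 genes measured on both days the effect on day 42 differed from that on day 6 in 407 (6.75%, 213 above and 194 below), and among 5922 it differed from that on day 1 in 532 (8.98%, 278 above and 254 below). The 2 differences share the arrays of day 42. By probe the difference passed for 575 (7.2%) against day 6 and 692 (8.84%) against day 1, and with brightness in the fit for 201 and 0.

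Some of the genes named for their difference had smaller effects on day 42 than before. The effect on Reg3b was 4.10 ± 0.62 on day 1, 6.28 ± 0.46 on day 6 and 1.40 ± 0.48 on day 42, and that on Spp1 4.83 ± 1.07, 4.64 ± 0.73 and -0.10 ± 0.46. Timp1 stood at 3.24 ± 0.35, 2.99 ± 0.43 and 0.75 ± 0.20 over the same days and Postn at 2.99 ± 0.51, 3.39 ± 0.32 and 0.70 ± 0.23. The differences of all 4 from both earlier days passed, with adjusted p between 0.00111 and 0.0367. Mybpc2 followed with 2.55 ± 0.20, 2.998 ± 0.35 and 0.81 ± 0.21 (adjusted p of the differences 0.0130 from day 1 and 0.00192 from day 6). Thbs4, at 3.90 ± 0.36 on day 6, differed from that day only (adjusted p = 0.0285), as did 2 stress-inducible genes, the haem oxygenase Hmox1 (2.56 ± 0.44 on day 6, -0.37 ± 0.21 on day 42) and the metallothionein Mt1 (2.81 ± 0.61 on day 6, 0.27 ± 0.37 on day 42).

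Another set had its effect on day 42. Vash2 stood at -0.38 ± 0.17 on day 1, -0.04 ± 0.21 on day 6 and 1.90 ± 0.29 on day 42 (adjusted p of the differences 0.000873 and 0.00170). Usp36 was alike, at 0.13 ± 0.20, -0.07 ± 0.33 and 1.56 ± 0.16, as did Vegfa, at -0.03 ± 0.12, -0.34 ± 0.26 and 1.00 ± 0.16, and Ckb, at -0.16 ± 0.19, -0.12 ± 0.25 and 0.87 ± 0.16. The differences of these 3 passed with adjusted p between 0.00446 and 0.0435. Kcnip2 changed sign, with -0.79 ± 0.23 on day 1, -0.68 ± 0.33 on day 6 and 0.75 ± 0.16 on day 42 (adjusted p of the differences 0.0165 and 0.0198), and Abcc8 stood at -0.69 ± 0.16, -0.39 ± 0.17 and 0.41 ± 0.11. Samd12, at -0.65 ± 0.32 on day 6, passed against that day (adjusted p = 0.00244) and not against day 1 (adjusted p = 0.0577). Map1b, Nexn, Myocd and Sox4 were higher than sham on days 1 and 42 but stood at 0.08 ± 0.24, -0.50 ± 0.33, -0.50 ± 0.26 and -0.08 ± 0.40 on day 6, from which day 42 differed.

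For the natriuretic peptides no difference between days passed the threshold, although both effects were smallest on day 1. The effect on Nppa was 1.39 ± 0.39, 2.86 ± 0.23 and 3.10 ± 0.66 on days 1, 6 and 42. That on Nppb was 0.34 ± 0.14, 0.74 ± 0.17 and 1.31 ± 0.30. By limma, the effect on day 42 minus that on day 1 was 1.71 ± 0.72 for Nppa (adjusted p = 0.118) and 0.96 ± 0.32 for Nppb (adjusted p = 0.0539). Against day 6 the adjusted p was 0.864 for Nppa and 0.290 for Nppb. Tgfb2, Col8a1, Enah and Ankrd23 likewise had no difference past the threshold from either day.

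**Figure D5:**
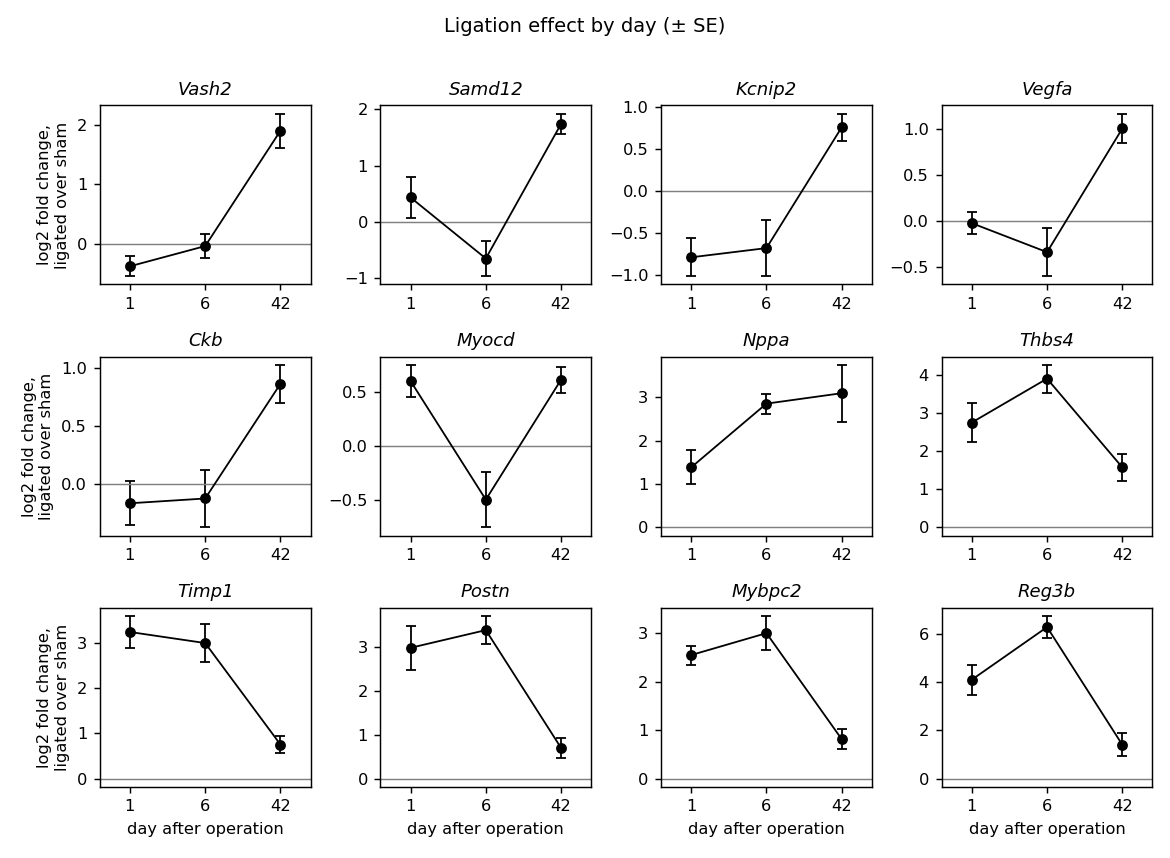
Log2 fold change of ligated over sham ± SE on days 1, 6 and 42 (evenly spaced, each day against its own shams) for 12 genes. Vash2, Samd12, Kcnip2, Vegfa and Ckb are highest on day 42, Nppa is at 2.86 on day 6 and 3.10 on day 42, and Thbs4, Timp1, Postn, Mybpc2 and Reg3b are lowest on day 42.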

How the data were processed

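Total RNA of the left ventricle was labelled with Cy3 and hybridised to Illumina BeadChips, and the scans went through BeadStudio 3.3 and GenomeStudio, per the submitters' processing notes. Per the file headers, the deposited table of each day lists 3 values per probe and array that are used here: the mean intensity of its beads, a p-value for detection, and the number of beads. The intensity is neither normalised nor background-subtracted, as judged from its values. The authors' series matrix holds a normalised intensity, method not stated, whose median was 21.4 on all 12 arrays of day 42, and was an alternative. Day 6 has 4 columns (1 array) that match no sample and were not used.

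Of 22523 probes, 13793 have a gene symbol (13337 genes) and 8730 none, of which 2012 were tested and 326 called. Intensities were corrected with the normexp model of limma 3.58.1 in R 4.3.3 (offset 16), quantile-normalised within the day and put on the log2 scale, starting from the values the authors deposited. Probes that 5 or more of the 12 arrays detected at p under 0.01 were fitted with lmFit and eBayes, ligated against sham, with Benjamini-Hochberg adjustment over all probes and a threshold of 0.05. The brightest of several probes stands for a gene, and 101 genes had several. Where no array of a group detected a probe, the fold is a bound, with each of its arrays set to no less than the lowest detected signal. Differences between days came from 1 fit of 6 group means over 35 arrays. Scripts were tested on simulated data. Bead arrays have no count depth, and the number of arrays limits precision.

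Genes were named by a rule: the 15 largest rises and falls past the threshold, if every array of either group detected the probe, up to 5 called members per list, 20 fixed genes and the 8 largest differences from each other day, from which the text gives a selection. The members and the lists (35 of functions, 17 of cell types) were chosen with earlier results of these data known. Ligated and sham replicate numbers did not pair the samples: correlations of same-numbered arrays lay between -0.20 and 0.34, and 2 of 6 ligated arrays matched their own number best. Alternatives changed the background correction, scaling, filter, variance model, covariate and arrays. Promoters are RefSeq's for GRCr8.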

Additional observations from a re-analysis of the deposited data

Results flagged for a closer look

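Single arrays stood far from the other 5 of their group in 11 of 218 groups of 6 values tested, and chance alone gives about 1 in 20. These log2 levels were Pdhb at 13.53 in ligated replicate 1, Pdp1 at 10.58 in ligated replicate 6, Abcc8 at 9.37 in ligated replicate 4, Calm3 at 9.84 in ligated replicate 1, Xcl1 at 6.29 in ligated replicate 2, Ddit3 at 11.72 in ligated replicate 6, Ranbp6 at 6.49 in ligated replicate 1, Kcnk2 at 8.95 in sham replicate 6, Nexn at 10.78 in sham replicate 4, Csrp2 at 8.59 in sham replicate 6 and Tnnc1 at 15.91 in sham replicate 1. None was left out of a fit for this.

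The ligation effect on day 42 minus that on day 6, as a difference of log2 fold changes each against the shams of its own day, passed the limma test for 26 of the genes named. It was above 0 for Samd12 (2.39), Vash2 (1.94), Nexn (1.64), Usp36 (1.63), Map1b (1.57), Sox4 (1.48), Kcnip2 (1.44), Vegfa (1.34), Ppara (1.18), Adcy5 (1.13), Myocd (1.11), Ckb (0.99) and Abcc8 (0.80). It was below 0 for Reg3b (-4.88), Spp1 (-4.74), Hmox1 (-2.93), Postn (-2.69), Mt1 (-2.53), Thbs4 (-2.33), Timp1 (-2.24), Mybpc2 (-2.18), Marchf7 (-1.23), Akt1s1 (-1.16), Slc46a3 (-0.96), Hif1a (-0.72) and Smad2 (-0.63). Marchf7, Akt1s1 and Slc46a3 entered the test of day 42 through the sham arrays, where they are high. Not all of their ligated levels are above background, so their differences are a description and the sizes are not fixed. 

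The ligation effect on day 42 minus that on day 1, as a difference of log2 fold changes each against the shams of its own day, passed the limma test for 18 of the genes named. It was above 0 for Sbsn (2.30), Vash2 (2.28), Pi16 (1.85), Kcnip2 (1.55), Usp36 (1.43), Adcy5 (1.10), Abcc8 (1.10), Ddit3 (1.07), Ckb (1.03) and Vegfa (1.03). It was below 0 for Spp1 (-4.94), Reg3b (-2.70), Timp1 (-2.49), Postn (-2.29), Mybpc2 (-1.73), Fstl3 (-1.22), Smad2 (-0.73) and Decr1 (-0.72). Day and BeadChip cannot be told apart in either comparison, and both share the arrays of day 42.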

How the results depend on the processing

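Counts moved most with scaling and brightness. Against 1252 probes (425 genes higher, 487 lower), median scaling called 4710 (56 and 3515), array weights 2106 (694 and 819) and brightness as a covariate 3 (2 and 0), with 884 probes at an unadjusted p under 0.05 and the median SE at 0.24 against 0.14. Leaving out 1 array gave 676 to 1772 probes, 249 to 599 genes higher and 252 to 683 lower. Scaling to the median of the probes tested, chosen after seeing the data, called 1356. The other settings called 1096 to 1672 probes, and with the replicate block, whose numbers do not pair the samples, 1204 probes passed, 997 of them shared. The difference from day 6 held for 575 probes (201 with brightness) and that from day 1 for 692 (4506 under median scaling, 460 with no detection filter, 0 with brightness, 323 to 899 without 1 array, 453 without ligated replicate 3 and 323 without sham replicate 1).

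Of 93 called genes named, 22 lost the call under median scaling, 5 when scaled to the median of the probes tested, 5 with the replicate block, 10 with no detection filter, 8 with the spread shared by all groups (among them Apln, Bmpr2, Klf13, Prf1 and Timp1), 92 with brightness and 19 without some array. Signs turned for Col1a1 (-0.46 under median scaling, -0.095 with array weights, -0.082 to 0.22 without 1 array), Ppara (-0.0078), Abcc8 (-0.10) and Mt1 (-0.22) under median scaling, and Mt1 (-0.088) and Tek (0.044) with brightness. Atp2a2 stood at 0.072 under median scaling, 0.28 in the series matrix, 0.023 with brightness and 0.59 when scaled to the median of the probes tested. Spp1 stood at 0.017 in the series matrix, 0.12 when scaled to the median of the probes tested and -0.38 to 0.088 without 1 array, and Kcnd2 at -0.36 to 0.022 without 1 array. The causes were not tested. Signal near background limits probes detected on few arrays, and signal near the scanner's upper end limits Ankrd1, Myh6, Myh7, Atp2a2 and Ckm. On some arrays Acta1, Nppa, Nppb, Ccn2 and Tnnc1, among others, also reached the levels of Ckm. The part of this limit in their fold changes was not tested.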

Other observations

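Against 6.82% higher and 7.82% lower over all genes tested, antioxidant genes held more falls and those of protein turnover and mitochondrial protein synthesis shares near it. Of 44 measured genes of antioxidant defence and glutathione, 1 rose and 6 fell (0 and 29 under median scaling), with a median of -0.14. Gsta4, a glutathione transferase that removes products of lipid oxidation, had 6.93, 7.28 and 7.48 as lowest, median and highest level in ligated against 7.65, 7.96 and 8.07 in sham ventricles, without overlap (-0.67 ± 0.12, adjusted p = 0.00469 by limma). Of 48 genes of the proteasome and muscle ubiquitin ligases, 1 rose and 5 fell (0 and 34), with a median of -0.042, and of 68 genes of the mitochondrial ribosome and import, 2 rose and 6 fell (0 and 48), with a median of -0.0038.

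Among 54 cytosolic ribosomal proteins 2 rose and 2 fell (0 and 26 under median scaling), and among 21 genes of the cell cycle 2 rose and 0 fell (0 and 6). Of 15 endothelial markers 0 rose and 1 fell (0 and 5), and of 10 markers of smooth muscle and pericytes 1 rose and 0 fell (0 and 3).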
